A study of Zanthoxylum armatum with 24 samples.

Results

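The A class floral genes of *Z. armatum* comprised 3 of the 60592 genes listed in each library. They were the pair Zardc39101(*ZaAP1*) and Zardc39213(*ZaAP1*), both annotated by their closest *Arabidopsis* protein as APETALA1, and Zardc30916(*ZaAP2*), annotated in the same way as APETALA2. The members were taken by gene ID from the study's list of floral organ identity genes, and all 3 passed the filter on low values, as did 38734 genes in all. That list was drawn up from genes that differed between the sexes in these libraries, so a sex difference of a member is a description and no independent evidence. The same holds for a stage change that differs between the sexes, which is made from the same sex comparisons.

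In the ABCDE model, worked out mainly in *Arabidopsis*, A class genes specify sepals and, with B class genes, petals. B and C class genes together specify stamens, C class genes carpels, D class genes ovules, and the E class *SEPALLATA* genes supply partner proteins for the others. AP1 is a MADS-box protein that also gives the young meristem its floral identity, so its transcript marks the change to a floral meristem in *Arabidopsis*. AP2 is not a MADS-box protein but belongs to the AP2/ERF family. In *Arabidopsis* it holds back the C class gene *AGAMOUS* in the outer whorls and is itself restrained by the microRNA miR172.

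Male (M) and female (F) floral material of dioecious trees was sampled at 4 stages of sex differentiation. M1 and F1 were undifferentiated primordia, M2 and F2 primordia at initiation, M3 and F3 primordia in differentiation, and M4 and F4 flowers in development and maturation. Each library pooled material from several trees of one sex, no treatment was applied, and the stages were collected on different dates, so stage and date cannot be told apart. Of the 24 libraries, 23 were used: 11 male libraries (2 of M2 and 3 of each other male stage) and 12 female libraries (3 of each stage). The third M2 library was left out because its deposited values cover 183 genes, 182 of them equal to those of M3 replicate 1, and hold no A class gene.

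Values were FPKM, read counts scaled by gene length and by the mapped reads of the library, which allows levels of different genes to be compared. Differences were tested with limma on log2(FPKM + 1) over all 38734 genes, and a gene was called where the absolute log2 fold change was at least 1 and the adjusted p at most 0.05. The pseudocount of 1 draws the fold changes of weak genes toward 0. FPKM summed to 931461–1109118 per library, 32887–34078 genes reached 1 FPKM, and the relative depth was 0.853–1.09 times that of M1 replicate 1. The RNA integrity values listed by the study were lower in F3 than in M3 and lower in F4 than in M4, without overlap. They were also lower in F3 than in F1 and F2, and the share of reads mapped was lowest in F3. Among the male stages, RNA integrity and the share of reads mapped were both lowest in M3, without overlap. The part of RNA quality in the differences that involve M3, F3 or F4 was not tested. The summed level of the 11 B class genes, which specify stamens with the C class, was 162–184 FPKM in M4, against 13.2–15.9 FPKM in F4. The study listed these 11 genes because they differed between the sexes in these libraries, so their levels are no independent check of the sex labels. These are whole floral samples, so fewer cells of a type and less RNA per cell cannot be told apart.

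Zardc39101(*ZaAP1*) was nearly silent in the undifferentiated primordia of both sexes, was strongly expressed from the initiation stage onward, and was then 2.07 to 2.97 times as high in males as in females. In the male libraries it was 0.101, 0 and 0 FPKM in M1, 31.0 and 32.4 FPKM in M2, 20.1, 25.2 and 26.0 FPKM in M3, and 50.5, 51.3 and 59.4 FPKM in M4. In the female libraries it was 0.316, 0.395 and 0.292 FPKM in F1, 13.0, 9.15 and 9.89 FPKM in F2, 9.32, 9.19 and 11.4 FPKM in F3, and 27.3, 25.2 and 25.4 FPKM in F4. In both sexes the gene was higher at stage 2 than at stage 1 and at stage 4 than at stage 3, without overlap, and from stage 2 on no male library was as low as the highest female library of its stage.

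**Figure D1:**
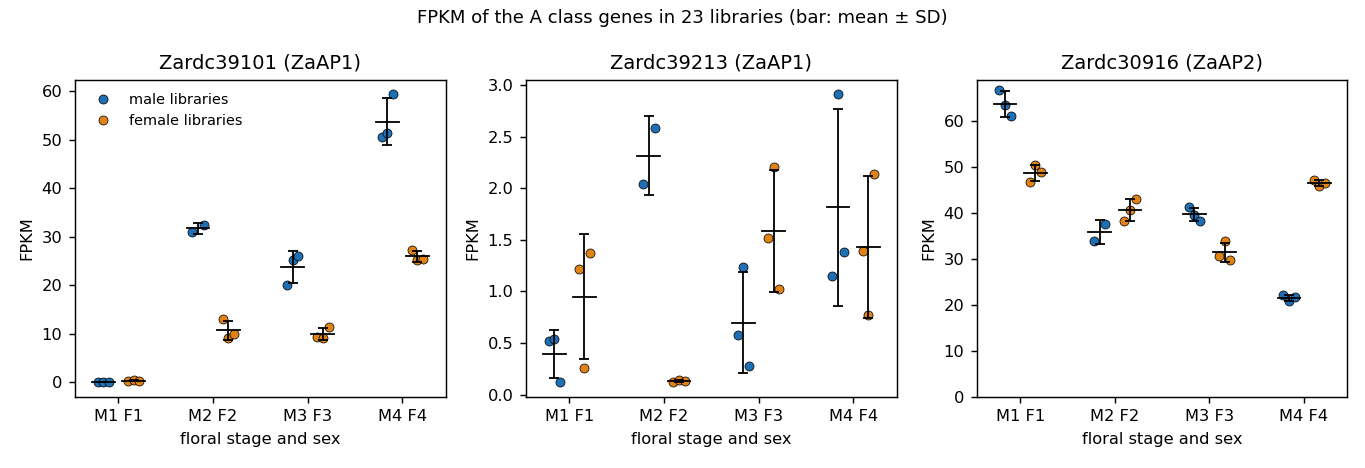
FPKM of Zardc39101, Zardc39213 and Zardc30916 (y axes, FPKM) in each of 23 libraries by stage and sex (x axes), with points for libraries, horizontal bars for group means and error bars for SD (n = 3, M2 n = 2). Zardc39101 separates the sexes at stages 2 to 4, Zardc30916 separates them most at stage 4 (21.6 FPKM in M4 and 46.5 FPKM in F4 on average), and Zardc39213 stays below 3 FPKM, with the sexes apart at stage 2 (2.04 and 2.58 FPKM in M2, 0.118–0.137 FPKM in F2).

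The reads behind these values were recovered from the step size of FPKM. All 3 M1 libraries together held 1 read of Zardc39101 and all 3 F1 libraries 10 reads, against 635 reads in the 2 M2 libraries and 327 reads in the 3 F2 libraries. The level of the gene at stage 1 is therefore known only as low. These counting intervals and limits cover counting error only.

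In M2*vs.*M1, 2 of the 3 members, both *ZaAP1* genes, were called higher, as were 2.04% of all genes tested. Zardc39101 averaged 31.7 ± 1.04 FPKM in M2 (SD, n = 2) and 0.0336 ± 0.0582 FPKM in M1 (SD, n = 3), a log2 fold change of 4.98 with an SE of 0.13 (limma adjusted p = 5.4e-16). On the log2(FPKM + 1) scale this was rank 1 from the top of all 38734 genes, and it was also rank 1 with pseudocounts of 0.1 and 0.5, after quantile normalization, after rescaling each library to an equal sum and without the filter. The ratio of reads at equal depth was 943, with a 95% counting interval of 169 to 37289 that is wide because M1 held 1 read. In M3*vs.*M1, Zardc39101 was the 1 member of 3 called higher (background 2.77%), at a log2 fold change of 4.58.

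In F2*vs.*F1, 1 of the 3 members was called higher, as were 1.06% of all genes, and it was again Zardc39101. It averaged 10.7 ± 2.03 FPKM in F2 and 0.334 ± 0.0538 FPKM in F1 (SD, n = 3 each), a log2 fold change of 3.12 (SE 0.12, limma adjusted p = 7.8e-14), which was rank 5 from the top. The read ratio was 32.2 (95% counting interval 17.3 to 67.8). In F3*vs.*F1 it was again the 1 member called higher (background 3.04%), at a log2 fold change of 3.03. The male step exceeded the female step by 1.87 on the log2 scale (SE 0.18, limma adjusted p = 4.2e-07 for the interaction). With a pseudocount of 0.1 the steps in M2*vs.*M1 and M3*vs.*M1 were 7.98 and 7.56 and the interaction 3.35, all called.

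Between stages 2 and 3 the gene was not called in either sex. Zardc39101 averaged 23.8 ± 3.23 FPKM in M3 and 31.7 ± 1.04 FPKM in M2, a log2 difference of -0.41 (limma adjusted p = 0.037) that is under the fold threshold, with no overlap of libraries. It averaged 9.96 ± 1.21 FPKM in F3 and 10.7 ± 2.03 FPKM in F2, a log2 difference of -0.08 (limma adjusted p = 0.61), with overlapping libraries. The interaction between these changes was -0.32 (limma adjusted p = 0.22).

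The second step came with flower development and maturation in both sexes. In M4*vs.*M3, Zardc39101 was the 1 member of 3 called higher (background 4.5%), at 53.7 ± 4.90 FPKM in M4 and 23.8 ± 3.23 FPKM in M3, a log2 fold change of 1.15 (SE 0.12, limma adjusted p = 1.2e-07). In F4*vs.*F3 it was likewise the 1 member called higher (background 4.25%), at 25.9 ± 1.18 FPKM in F4 and 9.96 ± 1.21 FPKM in F3, a log2 fold change of 1.30 (limma adjusted p = 2.0e-08). The difference between these steps, male minus female, was -0.15 (95% interval -0.50 to 0.19, limma adjusted p = 0.58). Neither second step was called by treat, a limma test that builds the threshold into the null hypothesis.

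Between the sexes at the same stage, Zardc39101 was called higher in males at stages 2, 3 and 4. The log2 fold change was 1.50 in M2*vs.*F2 (SE 0.13, limma adjusted p = 6.9e-08), 1.17 in M3*vs.*F3 (limma adjusted p = 2.0e-07) and 1.02 in M4*vs.*F4 (limma adjusted p = 8.4e-07). The read ratios of males to females were 2.94 (95% counting interval 2.57 to 3.37), 2.39 (2.07 to 2.77) and 2.07 (1.90 to 2.26) at these stages. The mean of the 4 sex contrasts was 0.83 (limma adjusted p = 8.7e-10), under the fold threshold. The call in M4*vs.*F4 was lost at 0.95 without M4 replicate 3 and at 0.999 without F4 replicate 2, and treat called none of the 3 stages, though it kept both steps from stage 1 to stage 2 and their interaction.

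At stage 1 the order of the sexes was the other way round, on very few reads. Zardc39101 had 1 read in the 3 M1 libraries and 10 reads in the 3 F1 libraries, a read ratio of 0.101 (95% counting interval 0.00232 to 0.707). Its log2 difference was -0.37 with a pseudocount of 1 (limma adjusted p = 0.021), not called, and -1.78 with a pseudocount of 0.1, called. The 2 M1 libraries without a read allow up to 3 reads each (one-sided 95% limit).

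In the order of its 8 group means, Zardc39101 ran M4, M2, F4, M3, F2, F3, F1, M1. The neighbours M2 and F4 (limma adjusted p = 0.086), F4 and M3 (limma adjusted p = 0.38) and F2 and F3 (limma adjusted p = 0.61) did not differ by the test, and the other 4 of 7 neighbouring pairs did. Over all genes and all neighbouring pairs of groups used here, 42.1% of tests reached an adjusted p of at most 0.05, for which no fold threshold was set. M2 and F4 libraries did not overlap.

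**Figure D2:**
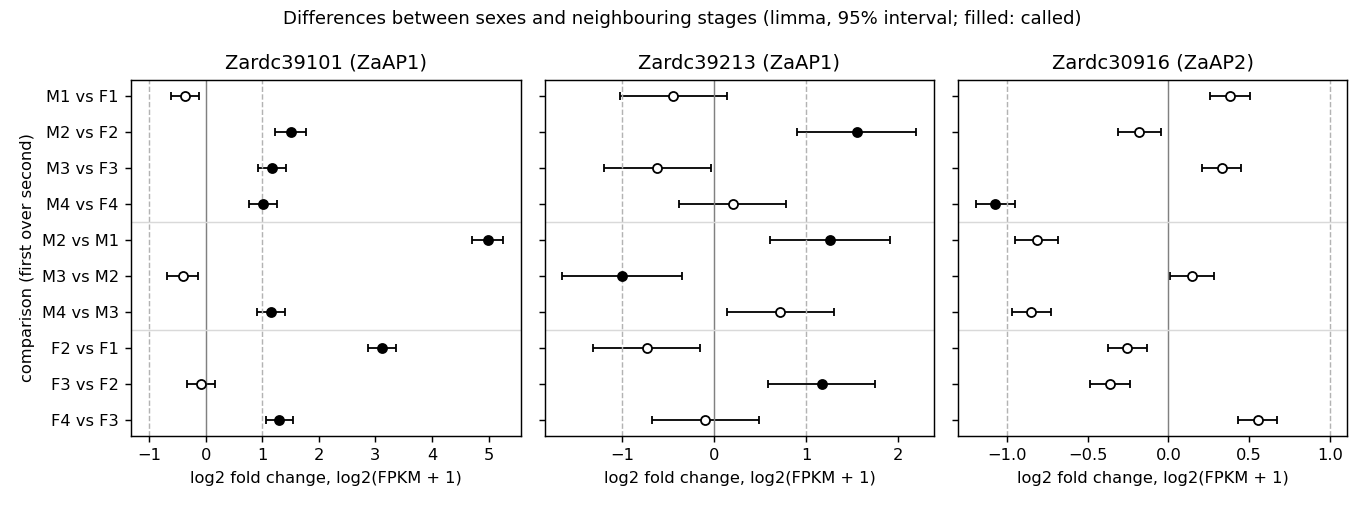
Log2 fold changes on the log2(FPKM + 1) scale (x axes) of the 3 genes in the 4 sex comparisons and the 6 comparisons of neighbouring stages (y axis, first group over second), as points with the 95% interval of the limma fit, filled where called; dashed lines mark the fold threshold of 1. For Zardc39101 the largest values are 4.98 in M2 vs M1 and 3.12 in F2 vs F1, and for Zardc30916 the only filled point is -1.07 in M4 vs F4.

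Zardc39213, the other gene annotated as *ZaAP1*, was weak throughout, at 0.118–2.91 FPKM. In the male libraries it was 0.518, 0.536 and 0.126 FPKM in M1, 2.04 and 2.58 FPKM in M2, 0.574, 1.23 and 0.278 FPKM in M3, and 1.15, 2.91 and 1.38 FPKM in M4. In the female libraries it was 1.22, 0.254 and 1.38 FPKM in F1, 0.118, 0.137 and 0.127 FPKM in F2, 1.52, 2.2 and 1.02 FPKM in F3, and 1.39, 0.768 and 2.14 FPKM in F4. On average males were highest at stage 2, where females were lowest, and at stages 1, 3 and 4 the sexes overlapped.

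These values rest on 194 reads in all, 1 to 23 per library. The F2 level is exactly 1 read in each of the 3 libraries, so its small SD (0.128 ± 0.00922 FPKM) reflects the same whole number and not a precise level. The reads summed to 9, 36, 15 and 43 over the M1, M2, M3 and M4 libraries and to 22, 3, 33 and 33 over those of F1, F2, F3 and F4.

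**Figure D3:**
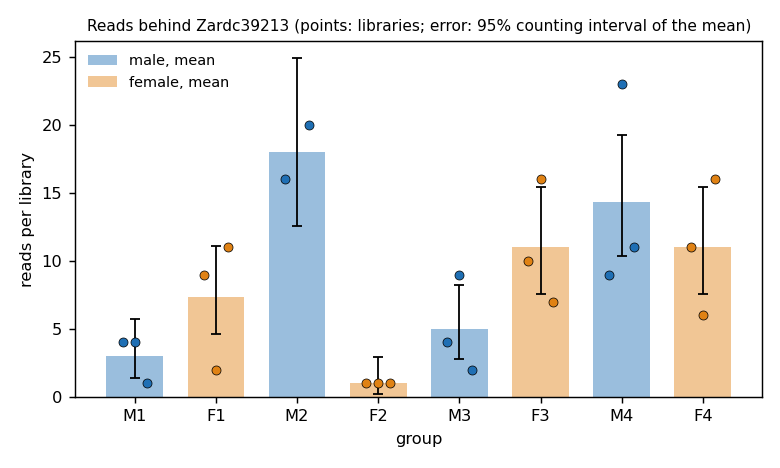
Reads of Zardc39213 per library (y axis) in the 8 groups (x axis), recovered from FPKM, with points for libraries, bars for group means and error bars for the 95% counting interval of the mean. M2 has 16 and 20 reads and F2 has 1 read in each library, while in M4 the libraries lie between 9 and 23 reads.

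In M2*vs.*F2, 2 of the 3 members were called higher in males, both *ZaAP1* genes, against 3.72% of all genes. Zardc39213 averaged 2.31 ± 0.383 FPKM in M2 and 0.128 FPKM in F2, a log2 fold change of 1.55 (SE 0.31, limma adjusted p = 0.0011). The 36 and 3 reads gave a ratio of 18.2 with a 95% counting interval of 5.75 to 92.3. At the other stages Zardc39213 was not called between the sexes, with log2 differences of -0.44 in M1*vs.*F1, -0.62 in M3*vs.*F3 and 0.20 in M4*vs.*F4 (limma adjusted p = 0.25, 0.085 and 0.60).

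Across stages the gene was called higher in M2*vs.*M1, at a log2 fold change of 1.26 (limma adjusted p = 0.0043), but not without M2 replicate 2 (1.14, limma adjusted p = 0.053). In M3*vs.*M2 it was the 1 member of 3 called lower (background 1.27%), at -1.0 (limma adjusted p = 0.031), a value at the fold threshold. That call was lost without M2 replicate 1 (-1.12), M2 replicate 2 (-0.88), M3 replicate 1 (-0.97) or M3 replicate 3 (-0.82), so it rests on single libraries. In M4*vs.*M3 it averaged 1.82 ± 0.955 FPKM in M4 and 0.695 ± 0.489 FPKM in M3, a log2 difference of 0.72 (limma adjusted p = 0.047) under the fold threshold, with overlapping libraries and a read ratio of 2.60 (95% counting interval 1.42 to 5.04). In F3*vs.*F2 it was the 1 member of 3 called higher (background 4.18%), at 1.58 ± 0.591 FPKM in F3 and 0.128 ± 0.00922 FPKM in F2, a log2 fold change of 1.17 (limma adjusted p = 0.0020). In F2*vs.*F1 the log2 difference was -0.74 (limma adjusted p = 0.053), and -1.03 and called without F1 replicate 2.

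The stage changes of Zardc39213 differed between the sexes. From stage 1 to stage 2 the male change minus the female change was 1.99 on the log2 scale (SE 0.42, limma adjusted p = 0.0025), and from stage 2 to stage 3 it was -2.17 (limma adjusted p = 9.0e-04). Both *ZaAP1* genes were called in the first of these interactions, 2 of 3 members against 2.12% of all genes called higher, and 1 of 3 in the second, against 3.05% called lower. In the order of group means 0 of the 7 neighbouring pairs of Zardc39213 differed in limma, and 0 had an unadjusted p under 0.05. The treat test kept no call of this gene, and a pseudocount of 0.1 gave 4.38 and -4.61 for these interactions, 3.40 for M2*vs.*F2, 2.43 for M2*vs.*M1 and 2.82 for F3*vs.*F2, all called.

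Per length, the *ZaAP1* signal was almost all Zardc39101 once the primordia had initiated. Zardc39213 made up 94.6 ± 9.39% of the summed FPKM of the 2 genes in M1, 6.78 ± 0.841% in M2, 2.83 ± 1.80% in M3 and 3.29 ± 1.80% in M4 (SD). It made up 67.0 ± 24.2% in F1, 1.22 ± 0.289% in F2, 13.9 ± 5.53% in F3 and 5.19 ± 2.43% in F4. Zardc39213 had the larger share on average at stage 1, except in F1 replicate 2 (39.1%), and the smaller share from stage 2 on in both sexes, with few reads behind either gene at stage 1.

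Averaged over stages, the share of Zardc39213 was 26.9% in males and 21.8% in females, a difference of 5.05 percentage points (exact two-sided permutation test within stages, p = 0.363) that was 1.56 without F1 replicate 2 and 6.98 without F1 replicate 3. On the log2 scale of the ratio of the 2 genes, with a pseudocount of 1, males minus females gave -0.66 (exact permutation p = 0.0097), the opposite sign, so no order of the sexes can be given. Reads that fit both copies could have been left out or split by the counting, and sequences of the genes were not analysed here, so the levels of the pair are uncertain to that extent.

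Zardc30916(*ZaAP2*) was well expressed in every library, at 21.0–66.8 FPKM and 443–1379 reads, and was highest in M1, where Zardc39101 was lowest. In the male libraries it was 66.8, 63.5 and 61.1 FPKM in M1, 34.0 and 37.7 FPKM in M2, 41.2, 39.7 and 38.3 FPKM in M3, and 22.2, 21.0 and 21.6 FPKM in M4. In the female libraries it was 46.8, 50.5 and 48.9 FPKM in F1, 38.3, 40.7 and 43.0 FPKM in F2, 30.7, 33.9 and 29.8 FPKM in F3, and 47.2, 45.9 and 46.5 FPKM in F4. Males thus started highest and ended lowest, while F4 and F1 overlapped.

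The sex difference of *ZaAP2* passed the fold threshold at the last stage only. In M4*vs.*F4, 1 of the 3 members was called lower in males, Zardc30916 (background 3.47%), and 1 was called higher, Zardc39101 (background 4.64%). Zardc30916 averaged 21.6 ± 0.614 FPKM in M4 and 46.5 ± 0.664 FPKM in F4 (SD, n = 3 each), a log2 fold change of -1.07 (SE 0.058, limma adjusted p = 2.1e-11), and the read ratio was 0.464 (95% counting interval 0.435 to 0.495). With each library rescaled to an equal sum the value was -0.93 and no longer called, on a scale where the median of all genes moved by 0.12 in this comparison. Treat did not call it either.

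At the earlier stages the sex differences of *ZaAP2* were smaller and changed sign. Zardc30916 averaged 63.8 ± 2.83 FPKM in M1 and 48.7 ± 1.81 FPKM in F1, a log2 difference of 0.38 (limma adjusted p = 4.3e-05) without overlap. It averaged 35.8 ± 2.61 FPKM in M2 and 40.7 ± 2.34 FPKM in F2, a log2 difference of -0.18 (limma adjusted p = 0.054) without overlap. In M3*vs.*F3, where the 1 of 3 members called higher was Zardc39101 (background 3.66%), Zardc30916 averaged 39.7 ± 1.48 FPKM in M3 and 31.4 ± 2.15 FPKM in F3, a log2 difference of 0.33 (limma adjusted p = 1.5e-04) without overlap. In M1*vs.*F1 limma called 0 of the 3 members, where 3.93% of all genes were called, and 2 had an unadjusted p under 0.05. Those 2, Zardc30916 and Zardc39101, also passed the adjusted p but lay under the fold threshold. The mean of the 4 sex contrasts was -0.14 for Zardc30916 and 0.17 for Zardc39213, neither called.

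No change of *ZaAP2* between neighbouring stages reached the fold threshold, although most passed the adjusted p. The log2 differences were -0.82 in M2*vs.*M1 (limma adjusted p = 6.7e-09), 0.15 in M3*vs.*M2 (limma adjusted p = 0.13) and -0.85 in M4*vs.*M3 (limma adjusted p = 2.9e-10). In females they were -0.26 in F2*vs.*F1 (limma adjusted p = 0.0019), -0.36 in F3*vs.*F2 (limma adjusted p = 3.9e-05) and 0.55 in F4*vs.*F3 (limma adjusted p = 1.6e-07). From stage 3 to stage 4 the male change lay below the female change by a log2 difference of -1.40 (SE 0.082, limma adjusted p = 1.8e-10), a call that treat kept. Zardc30916 was the 1 of 3 members called lower in that interaction, against 2.88% of all genes.

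In the order of group means *ZaAP2* ran M1, F1, F4, F2, M3, M2, F3, M4. F1 and F4 (limma adjusted p = 0.37), F2 and M3 (limma adjusted p = 0.71) and M3 and M2 (limma adjusted p = 0.13) did not differ by the test, and the other 4 of 7 neighbouring pairs did. Of those 3 pairs, M3 and M2 had libraries that did not overlap. The extremes were both male, with 63.8 FPKM in M1 and 21.6 FPKM in M4.

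The levels of the A class genes can be set against each other per length. The ratio of Zardc39101 to Zardc30916 in FPKM was 0.000503 in M1, 0.886 ± 0.0354 in M2, 0.601 ± 0.101 in M3 and 2.49 ± 0.235 in M4. In females it was 0.00684 ± 0.000933 in F1, 0.264 ± 0.0643 in F2, 0.319 ± 0.0567 in F3 and 0.558 ± 0.0185 in F4. M4 was the only group in which *ZaAP1* exceeded *ZaAP2*, with ratios of 2.28 to 2.74 in its 3 libraries. Over the 8 group means of log2(FPKM + 1), Pearson's r between Zardc39101 and Zardc30916 was -0.75 and Spearman's rho -0.69, as a description of groups that share species, site and sequencing. Both genes were higher in F4 than in F3 on average, against that sign.

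**Figure D4:**
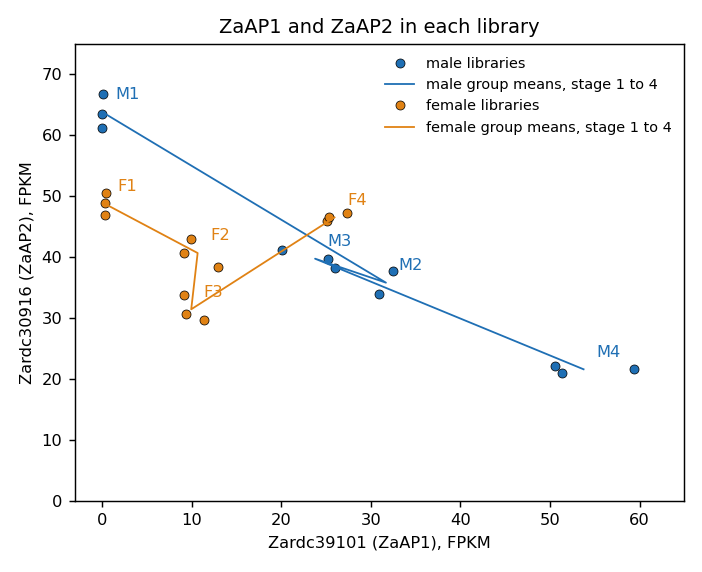
FPKM of Zardc30916 (y axis) against FPKM of Zardc39101 (x axis) in each library, with lines through the group means from stage 1 to stage 4 in males and in females. The male line runs from 63.8 FPKM of Zardc30916 in M1 down to 21.6 FPKM in M4 as Zardc39101 goes up, whereas the female line turns up between F3 and F4.

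The study also picked the other classes of floral genes from these libraries, apart from the C class gene, which it took from the genome. Most E class genes were called at initiation as Zardc39101 was. In M2*vs.*F2, 3 of 4 E class genes were called higher in males (all genes 3.72%), with a median log2 fold change over the 4 genes of 1.14, against 0 over all genes. They were Zardc32032(*ZaSEP1*), at 9.97 FPKM in M2 and 3.48 FPKM in F2, Zardc10299(*ZaSEP2*), at 19.2 and 8.22 FPKM in these groups, and Zardc28804(*ZaSEP2*), at 6.23 and 2.28 FPKM, the last named after its values were seen. The remaining E class gene, Zardc28170(*ZaSEP3*), went the other way, at 0 FPKM in M2 and 0.619 FPKM in F2 without overlap. Its log2 difference was -0.67 (limma adjusted p = 0.080), not called. In M2*vs.*M1, 3 of 4 E class genes were called higher (all genes 2.04%), and in F2*vs.*F1, 2 of 4 (all genes 1.06%).

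At the later stages no E class gene was called higher in males. In M3*vs.*F3 limma called 0 of the 4 genes, with an unadjusted p under 0.05 for 3 in the higher direction and 1 in the lower, where 3.66% of all genes were called higher and 2.35% lower. The log2 differences of Zardc10299, Zardc28804, Zardc32032 and Zardc28170 were 0.68, 0.40, 0.44 and -0.80, all under the fold threshold. Their limma adjusted p were 4.7e-04, 0.011, 0.058 and 0.010, so only Zardc32032 also missed the limit on the adjusted p. In M4*vs.*F4 limma called 0 of 4 higher, with 1 at an unadjusted p under 0.05 (all genes 4.64%), and 1 of 4 lower (all genes 3.47%). The gene called lower was Zardc28170(*ZaSEP3*), named after its values were seen, at 4.82 FPKM in M4 and 21.0 FPKM in F4. Zardc32032(*ZaSEP1*) averaged 57.1 FPKM in M4 and 74.3 FPKM in F4, not called, at the stage where Zardc39101 was called higher in males. Zardc28804(*ZaSEP2*) averaged 89.0 and 105 FPKM in these groups, also not called. Zardc10299(*ZaSEP2*) stayed higher in males without overlap at stages 3 and 4, under the fold threshold. It averaged 20.4 FPKM in M4 and 11.8 FPKM in F4, a log2 difference of 0.72 (limma adjusted p = 2.1e-04).

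Of the 11 B class genes, 1 was called higher in males in M1*vs.*F1 (all genes 2.58%), 1 in M2*vs.*F2 (3.72%), 2 in M3*vs.*F3 (3.66%) and 8 in M4*vs.*F4 (4.64%). The gene called at stage 1 was Zardc17043(*ZaPI*), at 4.44 FPKM in M1 and 0.454 FPKM in F1. The summed level of the B class was 4.07–5.09 FPKM in M1 and 0.326–0.706 FPKM in F1, and 28.9–40.0 FPKM in M3 and 2.91–3.96 FPKM in F3. Of the 4 D class genes limma called 0 at each of stages 1 to 3 (1, 0 and 1 had an unadjusted p under 0.05 at these stages), and all 4 were called lower in M4*vs.*F4 (all genes 3.47%), with summed levels of 13.3–13.7 FPKM in M4 and 36.0–42.2 FPKM in F4. In M1*vs.*F1, Zardc10218(*ZaSHP1*) passed the adjusted p but not the fold threshold, at -0.51 (limma adjusted p = 0.013) with overlapping libraries. The C class gene Zardc02402(*ZaAG*) was called higher in M3*vs.*F3 (all genes 3.66%) and at no other stage, at 14.0 FPKM in M3 and 3.86 FPKM in F3, and averaged 53.8 FPKM in M4 and 58.0 FPKM in F4. The study, which used DESeq2, reported no significant difference of this gene between male and female samples. At stage 2 the B class sum was 7.39–7.78 FPKM in M2 and 0.207–0.531 FPKM in F2, with 5 of the 11 genes at 0 in every M2 library and 7 in every F2 library. The B class sum was higher in males at all 4 stages, without overlap, but at stages 1 and 2 it was mainly Zardc17043 in males. That gene averaged 4.44 FPKM in M1 and 6.86 FPKM in M2, where the sum averaged 4.48 and 7.59 FPKM. The median log2 fold change of the 11 genes was 0 in M1*vs.*F1 and 0.001 in M2*vs.*F2. The D class sum overlapped between the sexes at stage 2 (0.331–0.750 FPKM in M2 and 0.489–0.763 FPKM in F2). At stage 3 it was higher in males without overlap (2.21–2.62 FPKM in M3 and 1.53–2.02 FPKM in F3). The part of these genes in the A class differences was not tested.

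**Figure D5:**
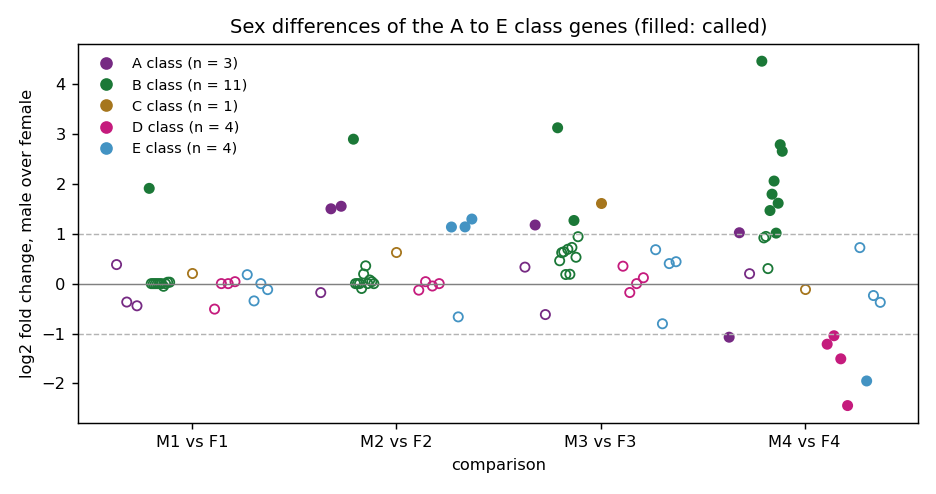
Log2 fold change of males over females (y axis, log2(FPKM + 1) scale) at the 4 stages (x axis) for each gene of the A, B, C, D and E classes, filled where called; dashed lines mark the fold threshold of 1. Filled points of the A and E classes appear together above the line at stage 2, with Zardc17043(*ZaPI*) of the B class higher still at 2.89. At stage 4 the filled points are mainly of the B class above the line (8 of 11 genes) and of the D class below it (4 of 4 genes).

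The study's list of floral transition genes holds *SOC1*, *SVP* and several less known MADS-box genes. Of 14 genes, 13 were tested, and 2 were called higher and 2 lower in M1*vs.*F1, 2 higher and 2 lower in M2*vs.*F2, 1 higher and 2 lower in M3*vs.*F3, and 2 higher and 1 lower in M4*vs.*F4. Of all genes, 2.58% were called higher and 1.35% lower at stage 1, 3.72% and 1.1% at stage 2, 3.66% and 2.35% at stage 3, and 4.64% and 3.47% at stage 4. In M2*vs.*M1, where Zardc39101 had the highest fold change of all genes, limma called 0 of the 13, and 3 had an unadjusted p under 0.05.

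The genes most like each member were sought by Pearson's r over the 8 group means of log2(FPKM + 1), as a description over groups that share stage and sex. For Zardc39101 the closest of 38733 genes were Zardc35079 (r = 0.992), Zardc51118 (0.983) and Zardc27795 (0.980), all without a name in the sources used here, and 71 genes reached 0.95. With r over the 23 single libraries, 0 of these 3 stayed among the closest 3. Among the 123 annotated genes, the closest were Zardc10299(*ZaSEP2*) at 0.928, Zardc25044 at 0.916 and Zardc32032(*ZaSEP1*) at 0.907. The least alike were Zardc01552(*ZaGH9B1*), a glycosyl hydrolase gene, at -0.738 and Zardc30916(*ZaAP2*) itself at -0.751.

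For Zardc30916 the closest genes were Zardc52868 (r = 0.986), Zardc43350 (0.976) and Zardc06122 (0.975), and 16 genes reached 0.95. Over single libraries, 1 of these 3 stayed among the closest 3. Among annotated genes they were Zardc54087(*ZaBGLU44*), a beta-glucosidase gene, at 0.883, Zardc07320(*ZaSIP1*) at 0.876 and Zardc11274(*ZaARR9*), a type-A response regulator of cytokinin signalling, at 0.822. The least alike were Zardc25044 at -0.919 and Zardc15205(*ZaIAA11*), of the Aux/IAA repressors of auxin response, at -0.943. Zardc25044 thus stood near the top of the annotated genes for *ZaAP1* and near the bottom for *ZaAP2*.

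For Zardc39213 the closest genes were one with an ID that the authors added from their reads (r = 0.969), Zardc52921 (0.959) and Zardc31173 (0.959), of which 1 stayed among the closest 3 over single libraries. Its closest annotated genes were Zardc26470(*ZaAGL29*) at 0.685, Zardc22092(*ZaBDL*) at 0.681 and Zardc44966 at 0.681, far below the values of the other members, and its least alike were Zardc07320(*ZaSIP1*) at -0.585 and Zardc01536 at -0.727. With levels this low, counting noise in Zardc39213 enters each of these values.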

How the data were processed

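The study sequenced 24 RNA libraries of male and female floral material, and the authors turned HTSeq counts per gene into FPKM, the unit of the deposited values. The submitters' processing notes list Bowtie 0.12.2 and a mouse build, mm8, which cannot be the genome of this plant. The sources used here do not say how reads matching 2 genes were counted. The file of the third M2 library was left out, which leaves 23. Labels give no batch, and library independence is as the study states it, so p-values measure the spread between these libraries.

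The members and gene lists were chosen with earlier results of these data known. A gene was tested where 3 or more libraries reached 1 FPKM, on log2(FPKM + 1), with limma 3.58.1 in R 4.3.3 (data.table version 1.17.8). All 8 groups entered 1 fit with 15 residual degrees of freedom, a trended prior and Benjamini-Hochberg adjustment within each contrast, and the calls were tested on simulated data. The contrasts were the 12 of the study, 3 interactions of sex with neighbouring stages (male change minus female change) and the mean of the 4 sex contrasts. A count test was not run, as the values are FPKM.

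Relative depth was estimated from the FPKM steps of weak genes. As a check over 12865 weak genes, 81.8% of 179753 values scaled by depth were whole multiples of the gene's lowest value within 0.5%. Whole reads of each member were the smallest whole numbers that fitted its own depth-scaled values in all 23 libraries. Within groups the reads of Zardc39101, Zardc39213 and Zardc30916 varied by 2.08, 1.99 and 1.77 times the counting variance. Counting intervals are therefore too narrow for the spread between these pooled libraries, and the spread between single plants was not measured. Named genes were the members, the 3 genes most like each among all genes, the 3 most and 2 least alike among annotated genes, and the marker genes of the classes. Alternatives were other pseudocounts, no filter, quantile normalization, rescaling to an equal sum per library (TPM), the compared groups alone, a replicate block, treat, unadjusted p and leaving out each library. Python 3.11.15 with numpy 2.4.6, pandas 2.3.3, scipy 1.17.1 and matplotlib 3.10.9 was used.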

Additional observations from a re-analysis of the deposited data

Results flagged for a closer look

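In 4 results the change between neighbouring stages differed between males and females in a test of the interaction (limma, male change minus female change). Each interaction is made from sex comparisons in the libraries on which the study chose the members, so it is no independent evidence. For Zardc39101(*ZaAP1*) the change from stage 1 to stage 2 was larger in males by 1.87 on the log2 scale. For Zardc39213(*ZaAP1*) the male change was larger by 1.99 from stage 1 to stage 2, and the difference was -2.17 from stage 2 to stage 3, on 3 reads in all F2 libraries. For Zardc30916(*ZaAP2*) the difference was -1.40 from stage 3 to stage 4. Groups of 2 or 3 libraries were too small for a check of single outlying libraries.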

How the results depend on the processing

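Of 843 values recomputed under the alternatives, 808 were labelled the same as the main result. For fold changes and the share this means the same direction and side of the threshold. For counts of neighbouring pairs and of alike genes it means a count near the main one. The 808 include 48 with unadjusted p, a setting that changes no estimate and cannot end a call. With a pseudocount of 0.1, Zardc39101 in M1*vs.*F1 (-1.78) and Zardc39213 in F2*vs.*F1 (-1.96) became called, and Zardc39213 in M3*vs.*M2 (-1.78) was lost to its adjusted p. The called changes of both *ZaAP1* genes that involve a group near 0 were larger at that pseudocount. Most of these values are given with those results, and Zardc39101 gave 4.62 in F2*vs.*F1 and 4.53 in F3*vs.*F1. With a pseudocount of 0.5, Zardc39213 in F2*vs.*F1 (-1.10) became called. Rescaling each library to an equal sum ended the call of Zardc30916 in M4*vs.*F4 (-0.93). It moved the median of all genes by 0.12 in M4*vs.*F4, 0.14 in M3*vs.*F3, -0.13 in F3*vs.*F2 and 0.11 in the interaction from stage 2 to stage 3, and the share of higher calls among all calls from 57.2% to 69.6%, 60.9% to 76.5%, 58.9% to 41.1% and 39.9% to 55.2% in these 4 contrasts, and from 46.7% to 32.3% in F3*vs.*F1. A fit of only the groups compared ended the call of Zardc39213 in M3*vs.*M2 (-1.0, limma adjusted p = 0.068). Replicate numbers did not pair the libraries (correlations of deviations -0.0782 to 0.0905 over 33 pairs), and the replicate block ended 1 call, Zardc39213 in M3*vs.*M2 (-0.97), and no other.

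Treat, the test against the fold threshold, ended 12 calls. They were Zardc39101 in M4*vs.*M3 (1.15), F4*vs.*F3 (1.30), M2*vs.*F2 (1.50), M3*vs.*F3 (1.17) and M4*vs.*F4 (1.02), Zardc39213 in M2*vs.*M1 (1.26), M3*vs.*M2 (-1.0), F3*vs.*F2 (1.17), M2*vs.*F2 (1.55) and the interactions from stage 1 to 2 (1.99) and 2 to 3 (-2.17), and Zardc30916 in M4*vs.*F4 (-1.07). The share of Zardc39213 between the sexes changed sign on the log2 ratio (-0.66) and ranged from 1.56 to 6.98 percentage points with 1 library left out. With 1 library left out, Zardc39101 ranged from -0.18 to 0.054 in F3*vs.*F2 and from 0.95 to 1.06 in M4*vs.*F4. The range of Zardc39213 was then 1.11 to 1.38 (M2*vs.*M1), -1.22 to -0.82 (M3*vs.*M2), -1.03 to -0.57 (F2*vs.*F1), -0.30 to 0.11 (F4*vs.*F3) and -0.064 to 0.40 (M4*vs.*F4). The cause of these changes was not tested. With Spearman's rho, 1, 0 and 2 of the 3 most alike annotated genes of Zardc39101, Zardc39213 and Zardc30916 stayed among the top 3, and with r over single libraries 3, 2 and 3 did. Of the 3 most alike among all genes, 0, 1 and 1 stayed over single libraries. Depth limits Zardc39213 in every group and Zardc39101 at stage 1. Without M2 replicate 1 or 2, the lone M2 library is assumed to vary like the other groups.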

Other observations

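Positions of the genes were not used here, so the 25 gene IDs before and the 25 after each member were taken as its neighbours in number only. Around Zardc39101, 35 of the 50 were tested, and 6 were called higher and 1 lower in M4*vs.*F4 (all genes 4.64% and 3.47%). At stages 1, 2 and 3, 1, 2 and 2 were called higher (all genes 2.58%, 3.72% and 3.66%). At each of these stages 0 were called lower (all genes 1.35%, 1.1% and 2.35%). Around Zardc39213, 30 were tested, and around Zardc30916, 36 were tested. At most 2 were called higher and at most 1 lower in males at any stage around either gene, beside the same shares of all genes. These counts were not tested.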
